A study of Mus musculus with 39 samples.

Results

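Phospholipases A2 cut membrane phospholipids into a free fatty acid and a lysophospholipid, and 6 mouse genes of this kind were followed here: Pla2g2e, Pla2g2d, Pla2g5, Pla2g4a, Pla2g7 and Pla2g15. They were found by gene name on the arrays, where they made up 6 of 29411 gene names and 9 of 40628 probes. Pla2g2e was chosen by its measured values, because its level in the KAL-1 diets lay below that in the high-fat control. The other 5 genes were added as relatives of it. The contrast of the KAL-1 diets with the high-fat control is therefore described below without a test, and tests are given only for other contrasts.

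Total RNA from subcutaneous adipose tissue of C57BL/6J mice was measured on 39 Agilent 1-colour arrays, 1 array for each diet and time point. LFC mice (10 arrays) ate a low-fat diet with 10% of its calories from fat, and HFC mice (11 arrays) ate a diet with added sucrose and 60% of its calories from fat. The HF5, HF20 and HF75 mice (6 arrays each) ate the HFC diet with 5, 20 or 75 µg of KAL-1, a plant formulation given in water, so that all 3 KAL-1 groups also carried the high-fat diet. Mice were put on the diets at 3 to 4 weeks of age in groups of 30, and 5 per group were killed at intervals of 3 weeks. LFC and HFC were sampled at Day 6, Day 10, Day 14 and Week 0, called early here, and all 5 diets at Week 3, 6, 9, 12, 15 and 18. A paper on the liver arrays of this experiment counted weeks from Day 14, which makes Day 14 and Week 0 the same time. They are kept as separate time points here, each with its own arrays. Counts over the early time points thus repeat that time. A Day 1 array existed for HFC only and entered no comparison. The labels do not say whether an array held the RNA of 1 mouse or a pool, nor the sex of the mice. With 1 array per diet and time point, the time points served as replicates, so that SDs hold the change over time as well as the spread between animals. The SE of a diet difference comes from a fit blocked on time point, and holds how diet differences varied from one time point to the next.

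A level is the log2 signal of a probe minus the log2 75th percentile of its array, so that 0 is a bright probe and -5 a dim one. The signal at that percentile ran from 108 to 1285 scanner units, and 49.3% to 87.8% of spots per array were well above background, the lowest share being that of HF75 at Week 3. The HF5 and HF20 arrays of Week 12 went against the deposited table of ratios, whose HF5 column correlated at 0.999 with the HF20 array and at 0.663 with its own. The labels of the array files were kept, and a value that rests on HF5 or HF20 alone carries this doubt. The 8 adipocyte marker genes, among them Adipoq, Plin1 and Fabp4, were well above background on each array. Skeletal muscle markers varied far more, from a mean level of -4.63 to 7.60 over the HFC and KAL-1 arrays of Week 3 to Week 18.

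Secreted phospholipases A2 are small calcium-dependent enzymes that act on lipoproteins, on the outer face of cell membranes and on microbial membranes. Pla2g2e, Pla2g2d and Pla2g5 belong to this class, and Pla2g2e and Pla2g5 are known from mouse work as enzymes that adipocytes produce under a high-fat diet. Pla2g4a is the cytosolic enzyme that releases arachidonic acid for prostaglandin and leukotriene synthesis. Pla2g7 is the plasma hydrolase of platelet-activating factor, a product of macrophages, and Pla2g15 is the lysosomal enzyme. In the RefSeq gene table (assembly GRCm38.p6) Pla2g2d, Pla2g5 and Pla2g2e lay in this order on chromosome 4, in a cluster that also holds Pla2g2c and Pla2g2f.

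Each gene had 1 probe except Pla2g2e, Pla2g4a and Pla2g7, which had 2. Probes are 60 bases long and are printed 5′ to 3′ for the second Pla2g2e probe and both Pla2g4a probes, since the agreement between probes of a gene bears on its values.
Pla2g2e, second probe: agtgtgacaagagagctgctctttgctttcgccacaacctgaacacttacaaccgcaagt
Pla2g4a, tested probe: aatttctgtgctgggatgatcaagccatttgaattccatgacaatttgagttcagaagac
Pla2g4a, second probe: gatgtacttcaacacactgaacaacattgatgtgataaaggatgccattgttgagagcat
The brighter probe of each gene was tested. The tested Pla2g2e probe was well above background on 39 of 39 arrays and the second on 11, and over the 39 arrays the levels correlated at r = 0.80. The Pla2g4a probes (37 and 32 arrays) correlated at 0.98. The Pla2g7 probes, both well above background on 39 arrays, correlated at only 0.48, so statements on Pla2g7 depend on the probe. Pla2g15 was well above background on 39 arrays, Pla2g2d on 38 and Pla2g5 on 36. No member probe was saturated or marked as an outlier spot.

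The 250 bases before the RefSeq start of Pla2g2e (GRCm38.p6, chr4:138877692-138877941, plus strand) are shown because Pla2g2e is the gene whose level set this group apart. Capitals mark AGGTCA, a hexamer bound by nuclear receptors, and TGACTCA, the site of AP-1 factors.
Pla2g2e upstream: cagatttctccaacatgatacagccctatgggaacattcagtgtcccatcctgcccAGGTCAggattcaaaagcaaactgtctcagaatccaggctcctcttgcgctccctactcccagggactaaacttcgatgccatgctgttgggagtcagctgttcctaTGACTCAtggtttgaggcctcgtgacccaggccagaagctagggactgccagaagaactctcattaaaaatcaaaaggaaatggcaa
AGGTCA stood 194 bases and TGACTCA 87 bases before the start. Searched on both strands, AGGTCA was in 14.0% and TGACTCA in 4.46% of 32851 RefSeq windows of this length, and of the members' windows TGACTCA was found only in that of Pla2g2e. The match is a description of the letters and says nothing of binding in these mice.

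From Week 3 to Week 18 the level of Pla2g2e in HFC was -0.35 at Week 3, -1.02 at Week 6, 0.18 at Week 9, -1.87 at Week 12, -1.69 at Week 15 and -1.30 at Week 18. In LFC it was -3.38, -2.06, -1.80, -0.85, -2.77 and -3.04 at the same weeks. HFC was thus the highest of the 5 diets at 5 of the 6 weeks, and at Week 12 LFC was the highest.

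In HF5 the levels were -3.11, -2.70, -1.33, -1.24, -2.77 and -1.94 from Week 3 to Week 18. In HF20 they were -3.0, -2.02, -2.34, -1.61, -3.15 and -3.84. In HF75 they were -4.12, -2.22, -1.53, -2.81, -3.60 and -1.86. The groups overlapped: the HFC arrays reached down to -1.87, and the highest KAL-1 arrays stood at -1.24 in HF5, -1.61 in HF20 and -1.53 in HF75.

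By mean over the 6 weeks the order was HFC (-1.01 ± 0.79, SD, n = 6), HF5 (-2.18 ± 0.79), LFC (-2.32 ± 0.93), HF20 (-2.66 ± 0.82) and HF75 (-2.69 ± 1.02). HFC and HF5 lay further apart than either SD, and each other pair of neighbours in this order lay within its SDs. The gap between HFC and HF5 rests on the values by which Pla2g2e was chosen, so it is not separate evidence. The HF5 mean also carries the doubt on labels given above. In LFC and HFC alike, Day 14 and Week 0 lay below Day 6 and Day 10. LFC read 0.39 at Day 6, the highest of the 39 arrays, then -2.02, -4.04 and -3.47 at Day 10, Day 14 and Week 0. HFC read -5.13 at Day 1, the lowest of the 39 arrays, then -1.12, -0.28, -2.31 and -3.06. From Day 6 to Week 0 the adipocyte markers ran 5.33, 3.99, 2.62 and 2.66 in LFC and 5.04, 5.54, 3.44 and 3.62 in HFC. The skeletal muscle markers ran 4.43, 1.12, -1.51 and -2.67 in LFC and 5.26, 3.21, -2.95 and -1.03 in HFC. Both marker lists were thus also higher at Day 6 and Day 10 than at Day 14 and Week 0 in each diet, and their part in the Pla2g2e levels was not tested.

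**Figure D1:**
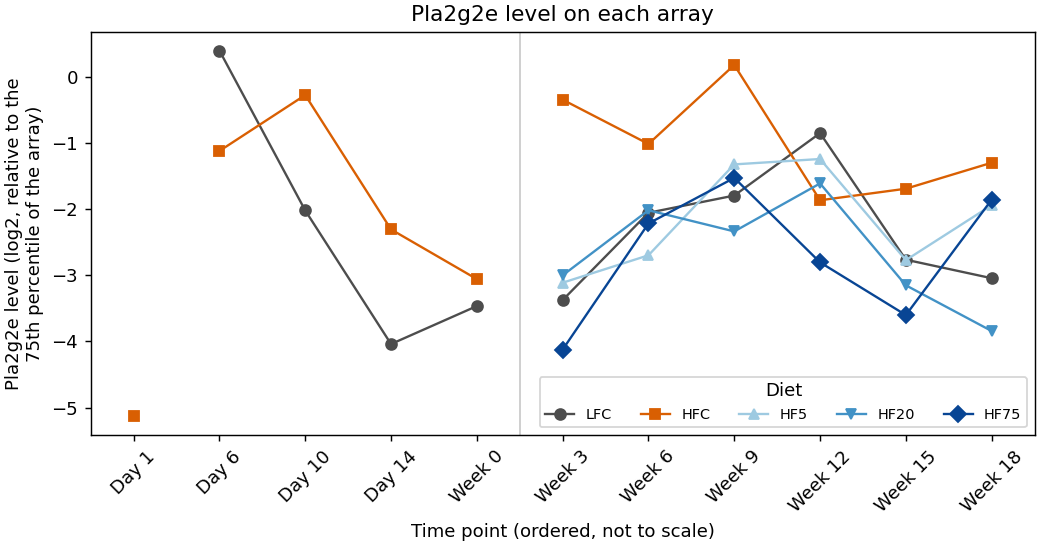
Pla2g2e level (log2, relative to the 75th percentile of the array) on each of the 39 arrays against time point, 1 point per array with a line for each diet. From Week 3 the HFC points lie above the other diets except at Week 12, where LFC reads -0.85 and HFC -1.87.

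Against the HFC array of the same week, the mean of the 3 KAL-1 arrays of Pla2g2e was lower at each of the 6 weeks. The weekly differences were -3.06 at Week 3, -1.29 at Week 6, -1.91 at Week 9, -0.02 at Week 12, -1.48 at Week 15 and -1.25 at Week 18. Of the 18 KAL-1 arrays 16 lay below HFC of their week, the exceptions being HF5 and HF20 at Week 12. The mean difference was -1.50 ± 0.33 (SE, log2), with -1.17 for HF5, -1.65 for HF20 and -1.68 for HF75. These are the values that chose the gene, and no test is drawn from them. With normexp background correction the mean difference was -0.76, without Week 3 it was -1.19, and with scan day as a block it was -1.80. Among these weeks, the arrays of Week 6 (HF20 and HF75 apart from the others) and Week 12 (HFC and HF75 apart) were scanned on different days.

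The second Pla2g2e probe gave a mean difference of -1.15 ± 0.43 (SE) for the same contrast, with 15 of 18 KAL-1 arrays below HFC of their week. Of the 18 KAL-1 arrays 3 gave this probe a signal well above background. Among HFC arrays 3 of 6 did, and among HF75 arrays 0 of 6 did, which limits the size of this probe's difference. For the other members the mean KAL-1 differences from HFC were -0.55 ± 0.60 (Pla2g2d), -0.29 ± 0.57 (Pla2g5), -0.47 ± 0.53 (Pla2g4a), -0.03 ± 0.26 (Pla2g7) and -0.46 ± 0.25 (Pla2g15), as SE. With normexp the sign turned for Pla2g2d (0.03), Pla2g5 (0.35) and Pla2g4a (0.09). It also turned without Week 3 for Pla2g5 (0.38) and without Week 6 for Pla2g7 (0.07). The count of KAL-1 arrays below HFC was 14 of 18 for Pla2g15, 11 for Pla2g2d and Pla2g4a, 10 for Pla2g5 and 8 for Pla2g7. The second Pla2g7 probe gave -0.46 ± 0.38 (SE), with 13 of 18 below HFC.

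**Figure D2:**
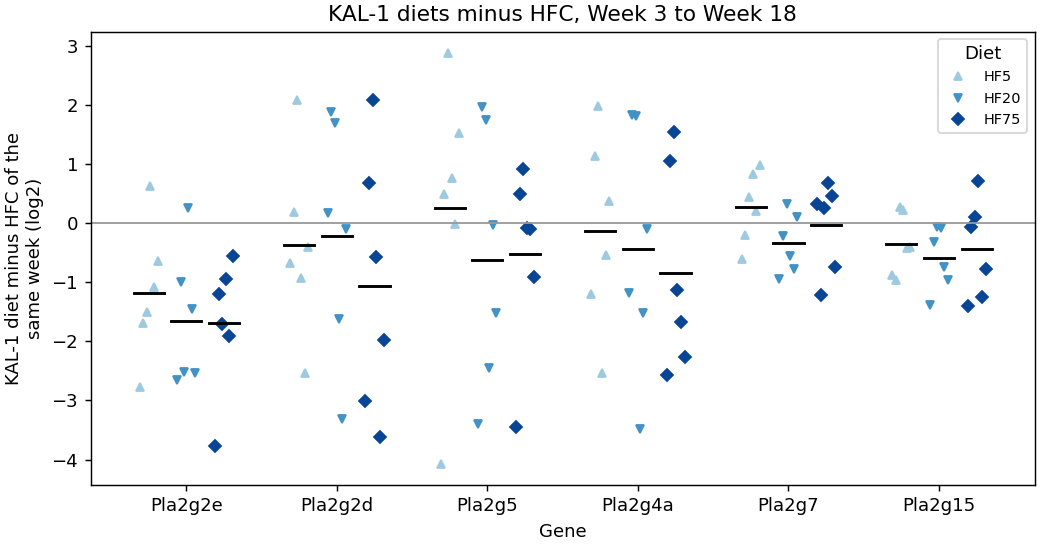
Level in HF5, HF20 and HF75 minus the HFC level of the same week (log2) for the tested probe of each member, 6 weeks per dose, with black bars at the means. For Pla2g2e 16 of 18 points lie below 0, and for Pla2g7 8 of 18 do, against 13 of 18 on its second probe, which is not plotted.

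Marker levels in HFC and in the KAL-1 diets overlapped, and their difference was not tested. The mean level of the 8 adipocyte markers was 3.68 in HFC (0.82 to 5.29) and 3.16 in the KAL-1 diets (1.51 to 5.00), all 8 being well above background in both. The 8 macrophage markers averaged 1.44 in HFC (0.65 to 2.06) and 0.72 in the KAL-1 diets (-1.99 to 2.41), with 7 or 8 well above background. The 8 skeletal muscle markers averaged -2.86 in HFC (-4.63 to -0.16) and -0.20 in the KAL-1 diets (-3.88 to 7.60). The 8 lymphocyte markers averaged -3.29 in HFC and -2.59 in the KAL-1 diets. Their part in the Pla2g2e difference was not tested. In bulk tissue, fewer cells of a type and less RNA per cell cannot be told apart.

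Whether the high-fat diet alone moved these genes was tested at the early time points, whose arrays took no part in choosing Pla2g2e. No member passed an adjusted p of 0.05 in limma with Benjamini-Hochberg adjustment, where 0 of 19873 genes (0%) did. By unadjusted p, 1 member (Pla2g7) was under 0.05, as were 1.49% of all genes. Pla2g2e was higher in HFC at 3 of 4 early time points, with a difference of 0.59 ± 0.64 (SE, log2, adjusted p = 1.00 by limma). The Day 6 arrays of the diets were scanned on different days, and with scan day as a block, which leaves the other 3 time points, the difference was 1.29 (adjusted p = 0.968 by limma). With normexp background correction it was -0.04.

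Pla2g7 read 0.73, 0.54, 0.58 and 0.67 in early LFC and 0.80, 1.59, 2.41 and 1.33 in early HFC. The diets did not overlap on this probe, and at Day 6 they differed by only 0.07. The share of all genes that separate in this way was not counted. The difference was 0.90 ± 0.37 (SE, adjusted p = 1.00 by limma). The second Pla2g7 probe gave 0.38 ± 0.68 (SE).

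Pla2g4a was higher in HFC at 4 of 4 early time points. It read -2.47, -2.88, -3.76 and -2.63 in LFC and -2.32, -0.59, -1.01 and -2.05 in HFC. All 4 HFC values lay above all 4 LFC values, by 1.44 ± 0.67 on average (SE, adjusted p = 1.00 by limma), and the second probe gave 1.47 ± 0.68. Here too the share of all genes that separate in this way was not counted. On the second probe the diets overlapped, with HFC higher at 3 of 4 early time points and a difference of -0.07 at Day 6. The macrophage markers averaged 1.24 in early HFC (0.30 to 1.88) and 0.25 in early LFC (-0.11 to 0.96), and their part in the Pla2g4a and Pla2g7 values was not tested.

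Pla2g15 was also higher in HFC at 4 of 4 early time points, by 0.91 ± 0.56 (SE). Nearly all of this came from Day 10, where HFC read 2.20 and LFC -0.77. At Day 6, Day 14 and Week 0 the differences were 0.06, 0.23 and 0.36. Pla2g2d differed by 1.51 ± 0.86 and Pla2g5 by 0.36 ± 0.72, both within 2 SE of 0. Without Day 6 the Pla2g2d difference was 0.83. The methods' t-test on the same values placed Pla2g2d, Pla2g4a and Pla2g7 under an unadjusted p of 0.05, where 1.33% of all genes were by that test, and no member after Benjamini-Hochberg adjustment.

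From Week 3 to Week 18, Pla2g2e was higher in HFC than in LFC at 5 of 6 weeks. The difference was 1.31 ± 0.41 (SE, log2, unadjusted p = 0.00398, adjusted p = 0.850 by limma). The HFC arrays of this comparison are those against which Pla2g2e was chosen, so it is not separate evidence. It was the only member under an unadjusted p of 0.05 among the 6, where 5.06% of 21087 genes were, and the methods' t-test also placed it alone there, with 1.75% of all genes. By adjusted p, 0 of 21087 genes (0%) passed. The second probe was well above background on 3 of 6 HFC and 1 of 6 LFC arrays, which limits its difference. Normexp background correction lowered the tested probe's difference to 0.60. The weekly differences ran from -1.01 at Week 12 to 3.03 at Week 3. The adipocyte markers stood at 5.22 in HFC and 2.24 in LFC at Week 3, and at 2.91 and 5.17 at Week 12. From Week 3 to Week 18 the skeletal muscle markers averaged -2.86 in HFC (-4.63 to -0.16) and -1.12 in LFC (-3.63 to 1.02), and the lymphocyte markers -3.29 (-4.63 to -1.39) and -1.69 (-3.33 to 2.05). The part of these markers in the difference was not tested.

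The other members differed by less than 2 SE between the same arrays. Pla2g4a differed by 0.76 ± 0.65, Pla2g5 by 0.37 ± 0.70, Pla2g15 by 0.23 ± 0.31, Pla2g7 by 0.18 ± 0.32 and Pla2g2d by -0.41 ± 0.74 (SE). Without Week 18, where the LFC array was not well above background for Pla2g4a, its difference was 0.24. Pla2g15 was higher in HFC at 5 of 6 weeks, with LFC 1.21 against HFC -0.72 at Week 12. Its difference was 0.66 without Week 12 and 0.07 without Week 18. The change of the HFC effect from the early to the late period had adjusted p values of 1.00 by limma for all 6 members, and none was under an unadjusted p of 0.05, where 1.89% of all genes were.

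**Figure D3:**
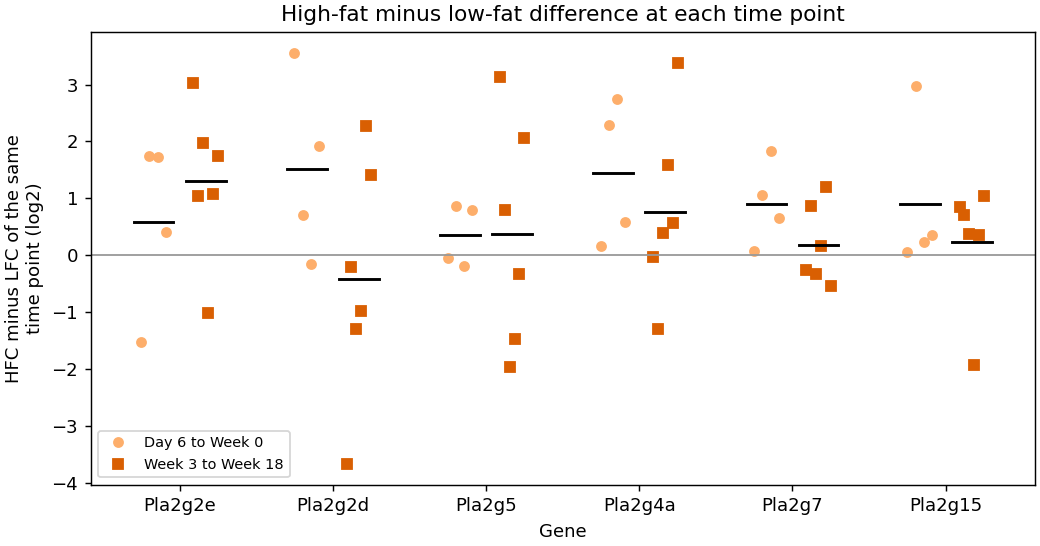
HFC minus LFC of the same time point (log2) for each member, with the 4 early and the 6 later time points apart and black bars at the means. Pla2g4a, Pla2g7 and Pla2g15 lie above 0 at all 4 early time points, and Pla2g2e lies above 0 at 5 of the 6 later ones.

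The KAL-1 diets together were set against LFC to see how far the members stood from the low-fat level. Pla2g2e differed by -0.20 ± 0.33 (SE, adjusted p = 1.00 by limma), with the KAL-1 mean above LFC at 2 of 6 weeks. This contrast reuses the KAL-1 arrays on which Pla2g2e was chosen. No member passed at an adjusted p of 0.05 or at an unadjusted p of 0.05, and of all genes 0% and 3.45% did. Pla2g2d differed by -0.96 ± 0.60 and the remaining 4 members by -0.24 to 0.30. Without Week 3, where the LFC array of Pla2g2d stood apart, its difference was -0.19.

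The dose of KAL-1 was read from HF75 against HF5, which uses no HFC array. Over all genes the median of this contrast was -0.0004. All 6 differences of the members were negative on the tested probes at this scaling, though normexp turned those of Pla2g2e and Pla2g5 and slide as a random block that of Pla2g15. They were -0.78 ± 0.70 for Pla2g5, -0.71 ± 0.65 for Pla2g4a, -0.69 ± 0.74 for Pla2g2d, -0.51 ± 0.41 for Pla2g2e, -0.31 ± 0.32 for Pla2g7 and -0.09 ± 0.31 for Pla2g15 (SE). The adjusted p values by limma lay between 0.994 and 0.995. No member passed at either threshold, and of all genes 0% did by adjusted and 1.89% by unadjusted p. The second Pla2g7 probe gave 0.16 and the second Pla2g2e probe 0.13, each opposite in sign to the tested probe of its gene. The second Pla2g2e probe was well above background on only 1 of these 12 arrays. With the Week 12 HF5 and HF20 arrays exchanged, no member passed either.

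Over Week 3 to Week 18, with diet in the model, the members' levels changed per week by -0.02 to 0.06 on the log2 scale. This fit had no block for time point, so its p-values count the arrays of a week as independent. No scan day was shared between weeks, so week and scan day cannot be told apart. Pla2g4a had the steepest rise, 0.055 ± 0.043 per week (SE, adjusted p = 0.534 by limma), and for the others the adjusted p lay between 0.666 and 0.928. No member was called, where 0.0948% of all genes were by adjusted and 15.5% by unadjusted p. The adjusted count of 20 genes became 2894 without Week 3. On that subset Pla2g15 fell by 0.09 per week and passed (adjusted p = 0.0258 by limma).

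Among the secreted members, Pla2g2d, an enzyme known from lymphoid dendritic cells and macrophages, ranged widely without following diet. In LFC it read 1.35 at Week 3 and -2.03, -1.28, -1.20, -2.48 and -2.48 at the later weeks. In HFC it read -2.32, -2.24, -2.58, -2.19, -0.20 and -1.07. The LFC array of Week 3 stood 2.55 above the next LFC array. On that array the lymphocyte markers (Cd79a, Cd3e and others) averaged 2.05, the highest LFC value, against a late LFC mean of -1.69. Their part in the Pla2g2d value was not tested. The KAL-1 arrays of Pla2g2d lay between -5.32 and -0.36 (median -2.44), and the lowest, HF75 at Week 3, was the only array on which its probe was not well above background. That array also held the lowest KAL-1 levels of Pla2g2e (-4.12) and Pla2g4a (-4.83). Its skeletal muscle markers averaged 7.60, the highest of the 39 arrays, its macrophage markers -1.99, the lowest, and 3 of 8 lymphocyte markers were well above background. The part of these markers in its member levels was not tested.

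Pla2g5, the group V secreted enzyme, had a dim probe with 1 high array. In HFC it read 0.19 at Week 3 and -4.94, -5.10, -2.73, -4.21 and -2.66 afterwards. In LFC it read -2.94, -5.73, -3.14, -1.26, -3.87 and -4.71, with the values of Week 6 and Week 18 not well above background. The KAL-1 diets lay between -5.18 and -1.13 with a median of -3.73. The diets overlapped throughout, and the HFC mean of -3.24 ± 1.98 (SD, n = 6) rested on Week 3.

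Pla2g4a overlapped between diets as well. In HFC it read -2.25, -3.06 and -2.32 at Week 3, 6 and 9, then -1.0, -0.72 and -0.98 at Week 12, 15 and 18. The later 3 HFC weeks were thus all above the earlier 3. In LFC it read -2.22, -1.76, -2.71, -2.58, -1.28 and -4.37, the last not well above background. The KAL-1 arrays spanned -4.83 to -0.33 with a median of -2.07, and at Week 9 all 3 lay above both HFC and LFC.

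The tested probe of Pla2g7 read 1.1 to 1.94 in LFC (median 1.46), 1.19 to 2.50 in HFC (median 1.49) and 0.45 to 2.97 in the KAL-1 diets (median 1.73) from Week 3 to Week 18. The diets overlapped in full. Pla2g15 read -0.84 to 1.21 in LFC (median -0.44), -0.72 to 0.98 in HFC (median 0.08) and -1.47 to 0.91 in the KAL-1 diets (median -0.54). HF20 was below HFC for Pla2g15 at each of the 6 weeks, by 0.06 at Week 9 up to 1.39 at Week 3, although the Week 12 array carries the doubt on labels given above.

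**Figure D4:**
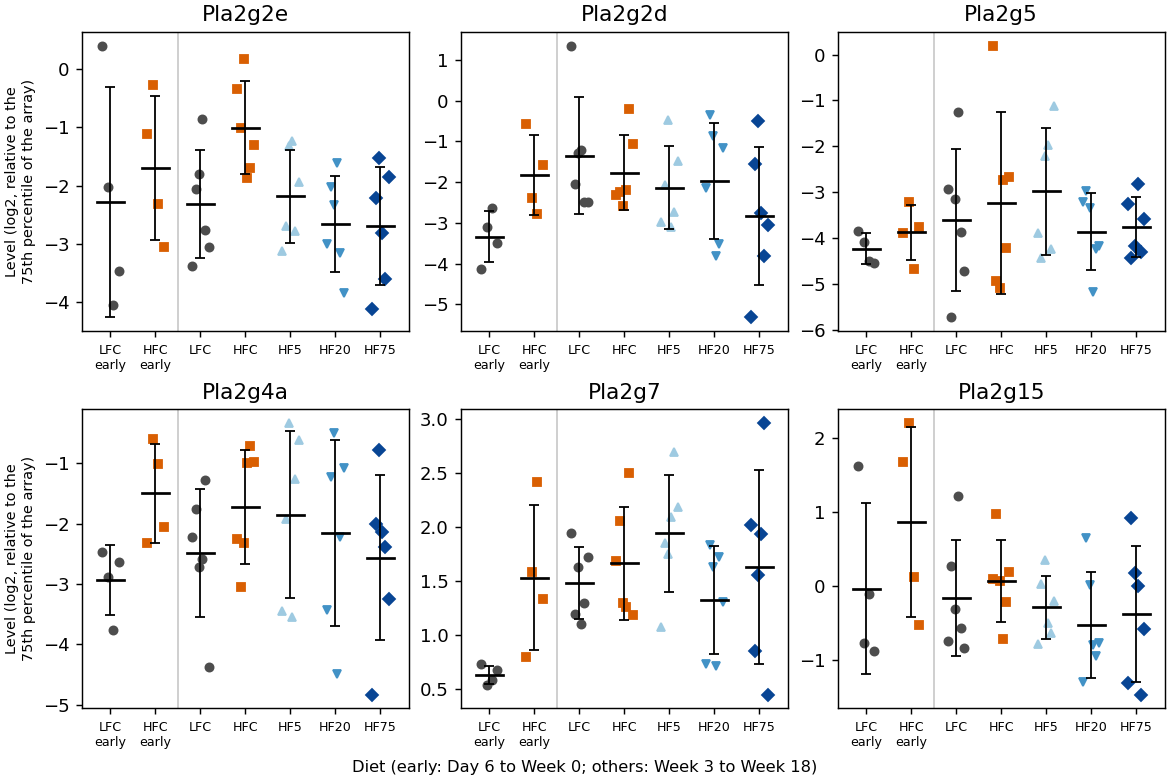
Level of each member's tested probe (log2, relative to the 75th percentile of the array) in the early LFC and HFC arrays (n = 4 each) and in the 5 diets from Week 3 to Week 18 (n = 6 each), 1 point per array, with the mean and SD in black. The diets overlap for most members, and the early LFC points of Pla2g7 lie between 0.54 and 0.73, below all early HFC points. How many of all genes separate in this way was not counted.

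The members did not form 1 block. Over the 39 arrays the highest correlation between members was that of Pla2g2e with Pla2g15 (r = 0.70), followed by Pla2g2d with Pla2g4a (r = 0.56), and Pla2g2e with Pla2g7 gave -0.11. Pla2g2e correlated at 0.23 with Pla2g2d and at 0.27 with Pla2g5, its neighbours on chromosome 4. These arrays share time points and scan days, and the correlations are descriptions. None of the members followed the brightness of the array closely, with r from -0.11 to 0.24.

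Pla2g2e followed the adipocyte markers at r = 0.67 (0.49 within time points) and Pla2g15 at 0.53 (0.32 within time points). With the macrophage markers Pla2g2e gave 0.44 (0.43 within time points) and Pla2g15 0.52 (0.60 within time points). Pla2g4a followed the macrophage markers at 0.78 and the fibroblast markers, such as Pdgfra and Col1a1, at 0.78. Pla2g2d followed the lymphocyte markers at 0.68, the macrophage markers at 0.67 and the dendritic cell markers at 0.57. Pla2g5 and Pla2g7 correlated with none of the 9 marker lists above 0.33 over the 39 arrays. Within time points Pla2g5 gave 0.46 with the fibroblast, 0.45 with the macrophage and -0.53 with the endothelial markers. Skin and simple epithelium markers were dim, with list means between -6.47 and -0.91 in the LFC, HFC and KAL-1 arrays from Week 3, and gave r between -0.41 and 0.22 with the members. Endothelial markers gave r between -0.44 and -0.11, and skeletal muscle markers between -0.27 and 0.23. Within time points Pla2g2e gave -0.42 with the skeletal muscle markers, against -0.10 over the 39 arrays.

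**Figure D5:**
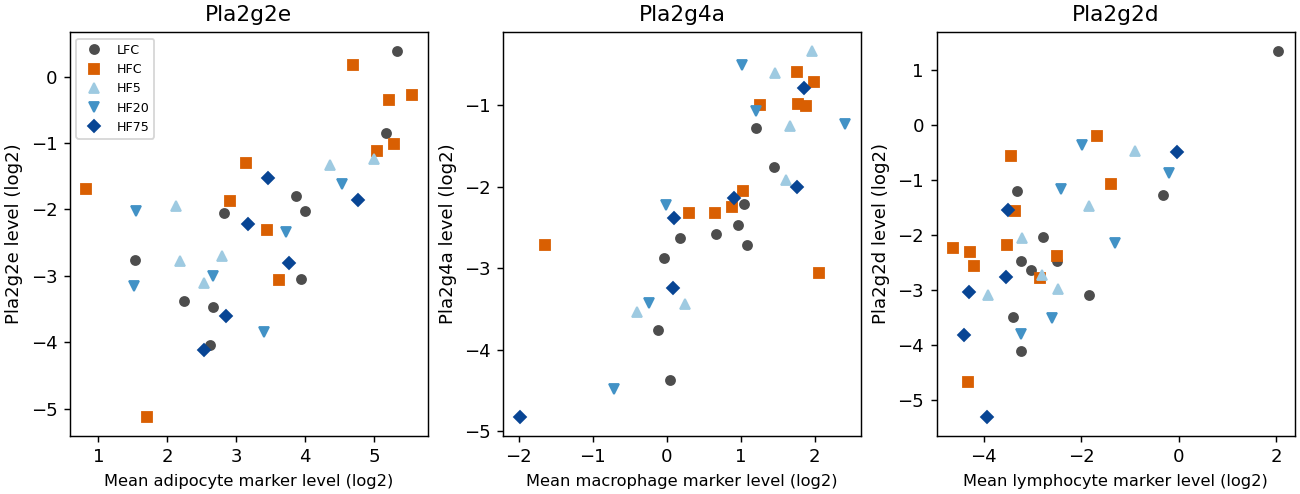
Level of Pla2g2e, Pla2g4a and Pla2g2d (log2) against the mean level of the adipocyte, macrophage and lymphocyte markers, 1 point per array (39 arrays), coloured by diet. The correlations are 0.67, 0.78 and 0.68, and the LFC array of Week 3 stands alone at the top right of the Pla2g2d panel.

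Of 19177 genes well above background on at least 20 arrays, those most like Pla2g2e over the 39 arrays were Slc1a5, a glutamine transporter (r = 0.85), Tspo, a mitochondrial outer membrane protein (r = 0.84), and Serpina3c, a serine protease inhibitor (r = 0.83). The gene most like Pla2g2d was Rgs14 (0.86), that most like Pla2g4a was Serping1 (0.88), that most like Pla2g15 was Spg21 (0.87) and that most like Pla2g5 was Vcpip1 (0.59).

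The rest of the pathway was read from 4 lists of 67 genes in all: other phospholipases A2 and their receptor, enzymes of prostaglandin and leukotriene synthesis, receptors for these lipids, and acyltransferases that rebuild phospholipids. Of these, 66 were on the array, 53 passed the filter on dim genes in the early comparison and 54 in the others. In the early HFC against LFC comparison 2 were higher and 1 lower at an unadjusted p of 0.05, where 1.49% of all genes were under it in either direction, with a median difference of 0.05 against -0.05 over all genes. From Week 3 to Week 18, 4 were higher in HFC and none lower, where 5.06% of all genes were under this p (median 0.10 against -0.06). In HF75 against HF5 none passed in either direction, where 1.89% of all genes did (median -0.15 against 0.00). In the KAL-1 diets against LFC 2 were higher, where 3.45% of all genes passed (median 0.01 against -0.02). None of these passed by adjusted p. In the KAL-1 diets against HFC, the contrast that chose Pla2g2e, the lists had a median of -0.11 against 0.02 over all genes, given without a test.

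Among other phospholipases A2, Pla2g16, the abundant adipocyte enzyme, averaged 3.32 ± 1.40 in HFC and 2.95 ± 1.36 in LFC (SD, n = 6), a difference of 0.37 ± 0.47 (SE). Pla2g12a averaged 0.34 in both diets. Pla2g2a, which C57BL/6 mice carry in a disrupted form, was well above background on 0 of 6 arrays in late LFC, HFC, HF5 and HF75 and on 1 of 6 in HF20. In the early period it was so on 2 of 4 HFC and 1 of 4 LFC arrays. Pla2r1, the receptor for secreted phospholipases A2, averaged -0.36 ± 0.59 in HFC and -1.49 ± 1.16 in LFC (SD, n = 6). It was 1.13 ± 0.43 higher in HFC and 0.89 ± 0.35 higher in the KAL-1 diets than in LFC (SE, adjusted p = 0.850 and 1.00 by limma).

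Downstream of Pla2g4a, Ptgs1 and Ptgs2, the cyclooxygenases, differed between HFC and LFC from Week 3 to Week 18 by 0.03 ± 0.50 and 2.54 ± 1.18 (SE). Ptgs2 spread widely in LFC (-2.55 ± 3.79, SD, n = 6) and was well above background on 4 of those 6 arrays. Hpgd, which inactivates prostaglandins, was 1.03 ± 0.45 higher in HFC, and Ptgfr, the receptor for prostaglandin F, 1.70 ± 0.63 higher (adjusted p = 0.850 for both by limma). Ptgfr was well above background on 3 of 6 LFC and 6 of 6 HFC arrays, which limits the size of its difference.

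In the early period, Tbxas1 (thromboxane synthase) was 1.6 ± 0.58 and Ltb4r1 (a leukotriene B receptor) 1.68 ± 0.55 higher in HFC. Mboat2, an acyltransferase, differed by -1.17 ± 0.52 (SE). Alox5ap, the helper of 5-lipoxygenase, differed by 1.03 ± 0.48. Each of the 4 had an adjusted p of 1.00 by limma. The macrophage markers averaged 1.24 in early HFC and 0.25 in early LFC, and their part in these values was not tested.

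In HF75 against HF5 the smallest p values of the lists belonged to Pla2r1 (-0.73 ± 0.43), Ptger4 (-0.97 ± 0.61) and Hpgd (-0.67 ± 0.45, SE). In the KAL-1 diets against LFC, Lpar4, a lysophosphatidic acid receptor, differed by 0.52 ± 0.24 and Agpat2, an acyltransferase of triglyceride synthesis, by -1.22 ± 0.63. Over weeks, 3 genes of the lists rose and 2 fell by unadjusted p, where 15.5% of all genes passed (median 0.02 per week against 0.01 over all genes). Ptges3, which is both a prostaglandin E synthase and a chaperone partner, was the only one called by adjusted p. It rose by 0.06 ± 0.01 per week (SE, adjusted p = 0.0474 by limma). This call was lost when the last week was left out, a setting in which no gene was called. As for the members, the fit had no block for time point, and week and scan day cannot be told apart. Mboat1 changed by -0.10 ± 0.03 and Ptger2 by 0.10 ± 0.04 per week (adjusted p = 0.193 and 0.241 by limma).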

How the data were processed

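Total RNA of subcutaneous adipose tissue was hybridised to 39 arrays, and each array file deposited by the authors holds spot intensity values, already background-subtracted and detrended within the array by Agilent Feature Extraction (10.5.1.1 in the headers) but not scaled between arrays. The labels name version 9.1, and the Week 9 files give values to fewer digits. The deposited table holds log2 ratios of each diet to LFC at its time point, made by the authors with GeneSpring GX, and its LFC columns are 0. Here outlier spots were left out, spots of a probe averaged, log2 levels scaled to the 75th percentile, and the brightest probe of each gene name tested. Genes well above background on fewer arrays than the smallest group were dropped. Tests were two-sided limma fits (version 3.58.1, R 4.3.3) with Benjamini-Hochberg adjustment over all genes that passed. The diet contrasts took the time point as a block. The change per week took week as a number and diet as a covariate, with no block. The pairing by time point comes from the labels. The number of arrays limits precision, and p-values measure the spread between arrays only. Members, gene lists and tests were chosen with earlier results of these data known. Named were all members, 7 fixed pathway genes, the 3 list genes with the smallest p per tested comparison (KAL-1 against HFC was not one), and the genes most alike by Pearson r, of which 1 is not reported here. Alternatives were normexp (offset 50), quantile scaling, other filters, probe averaging, outlier spots kept, no block, scan day or slide as a block, the methods' t-test, the deposited ratios, and each time point left out. The exchange of the Week 12 arrays and a fit of all probes were added after seeing the data. Fits were tested on simulated data.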

Additional observations from a re-analysis of the deposited data

Results flagged for a closer look

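The LFC array of Week 3 stood apart from the other 5 LFC arrays of Week 3 to Week 18 for Pla2g2d, with a level of 1.35 against -1.20 for the nearest and -2.48 for the lowest. The gap to its neighbour was 0.666 of the whole range of the group, above the value that Dixon's test allows for 6 arrays. Of 42 groups of arrays examined for the 6 members this was the only one so marked, and chance marks about 1 in 20.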

How the results depend on the processing

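No member passed an adjusted p of 0.05 under any alternative in any tested comparison (0 members in each), except over weeks, where leaving out 1 time point gave 0 to 1 members: Pla2g15 passed without Week 3, a setting that also raised the genes called from 20 to 2894 (51 without Week 12, 0 without Week 18, 2 to 6 without each of the others). Without the time point as replicate block the differences were the same, with 0.99 for the adjusted p of Pla2g2e in HFC against LFC from Week 3 to Week 18 (0.258 to 1.00 over all alternatives, limma or the methods' t-test), and the block changed no call. Normexp moved the median of all genes by up to 0.36 and turned the sign of Pla2g2e (-0.041) and Pla2g5 (-0.21) in early HFC against LFC, of Pla2g5 (-0.51) and Pla2g4a (-0.050) from Week 3 on, of Pla2g2e (0.027) and Pla2g5 (0.10) in HF75 against HF5, of Pla2g5 (-0.16) in KAL-1 against LFC, and of Pla2g2d (0.026), Pla2g5 (0.35) and Pla2g4a (0.087) in KAL-1 against HFC. It also brought Pla2g2e in HF20 against HFC to -0.44. Averaging all probes gave 0.0066 for Pla2g2e in KAL-1 against LFC and -0.012 per week for Pla2g7. Scan day as a block gave -0.18 for Pla2g5 in KAL-1 against LFC and 0.014 for Pla2g7 in KAL-1 against HFC. Slide as a random block gave 0.025 for the latter, 0.32 for Pla2g2d from Week 3 on and 0.12 for Pla2g15 in HF75 against HF5, and it could not be estimated in the early comparison. The cause was not tested.

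With each time point left out, values whose sign turned ran from -0.95 to 0.24 (Pla2g2d), -0.18 to 0.83 (Pla2g5) and -0.020 to 0.33 (Pla2g7) for HFC against LFC from Week 3 on, and from -0.28 to 0.06 (Pla2g15) for HF75 against HF5. For KAL-1 against LFC they ran from -0.26 to 0.51 (Pla2g5), -0.19 to 0.69 (Pla2g4a), -0.054 to 0.31 (Pla2g7) and -0.38 to 0.047 (Pla2g15), and for KAL-1 against HFC from -0.72 to 0.38 (Pla2g5) and -0.11 to 0.068 (Pla2g7). Per week they ran from -0.074 to 0.017 (Pla2g2e), -0.056 to 0.064 (Pla2g5), -0.012 to 0.086 (Pla2g4a), -0.011 to 0.045 (Pla2g7) and -0.095 to 0.0067 (Pla2g15). The change per week has no methods' t-test, no scan-day block and no deposited ratios. Dim probes limit Pla2g5 and the second Pla2g2e probe.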
